A study of Mus musculus with 5 samples.

Results

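The 35 genes described here encode the enzymes, transporters and regulators of glycolysis, the pentose phosphate pathway and glycogen turnover. They were taken as a listed set and matched by gene symbol, alone or as part of a merged feature name, and 35 of 35 were found both among the 38166 features of the progenitor tables and among the 34315 features of the granulocyte tables. Their levels were read in 5 RNA-seq libraries of polyA-selected RNA from C57BL/6 mice. Both granulocyte libraries came from Gr1+ cells sorted from the bone marrow of 12-month-old mice, and the labels call them technical replicates of 1 biological replicate, so n = 1. KSL cells, the source of the other 3 libraries, are the c-Kit+, Sca-1+, lineage-negative marrow fraction that holds blood stem cells and early progenitors. For these, Sca-1+ cells of mice injected with 5-FU, a drug toxic to cycling cells, received a GFP-marked retrovirus and were cultured for 2 days with mSCF at 10 ng/ml and mTPO at 100 ng/ml before c-Kit+Sca-1+Lin-GFP+ cells were sorted. The viruses were a knockdown control, a knockdown of the long non-coding RNA LncHSC-1 and a knockdown of LncHSC-2, with 1 library each. All 3 KSL groups therefore share the drug, the transduction and the culture, and the control is not an untreated cell. Of the KSL donors, the sources used here give neither age nor pooling.

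Glycolysis splits glucose into pyruvate in the cytosol, yields ATP and NADH, and ends in lactate when lactate dehydrogenase reoxidises the NADH. The pentose phosphate pathway branches off at glucose 6-phosphate, makes NADPH and ribose 5-phosphate, and returns its carbon to glycolysis through transketolase and transaldolase. Neutrophils, which form most of the Gr1+ marrow cells, are known to rely on glycolysis, to store glycogen, and to spend NADPH in the oxidative burst, while blood stem cells in the marrow are known for a glycolytic metabolism. Several steps are carried out by isozymes encoded by separate genes, and most of the comparisons below concern which isozyme's transcript was present.

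The sequences upstream of 5 members are shown because 4 of them were the members furthest above KSL cells in granulocytes on the centred log2 scale defined further on, and Ldha was the highest member in KSL cells. Each run is the 250 bases before a RefSeq start in GRCm38.p6, printed 5′ to 3′ on the gene's strand. These coordinates are not those of mm9, the build of the expression tables. Capitals mark ACGTG on either strand (CACGT on the strand shown), the core of the hypoxia response element, and the E-box CACGTG, which contains it.
Hk3, chr13:55021386-55021635, minus strand: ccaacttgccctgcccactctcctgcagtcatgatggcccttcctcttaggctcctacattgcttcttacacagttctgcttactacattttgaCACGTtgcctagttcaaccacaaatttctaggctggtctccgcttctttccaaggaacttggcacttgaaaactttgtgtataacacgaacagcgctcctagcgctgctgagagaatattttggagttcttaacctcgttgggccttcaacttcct
Slc16a3, chr11:120948817-120949066, plus strand: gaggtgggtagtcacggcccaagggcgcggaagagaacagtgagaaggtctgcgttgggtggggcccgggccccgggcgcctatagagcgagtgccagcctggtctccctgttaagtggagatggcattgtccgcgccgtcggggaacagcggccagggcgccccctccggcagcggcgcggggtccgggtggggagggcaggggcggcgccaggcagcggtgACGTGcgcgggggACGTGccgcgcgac
Pygl, chr12:70227684-70227933, minus strand: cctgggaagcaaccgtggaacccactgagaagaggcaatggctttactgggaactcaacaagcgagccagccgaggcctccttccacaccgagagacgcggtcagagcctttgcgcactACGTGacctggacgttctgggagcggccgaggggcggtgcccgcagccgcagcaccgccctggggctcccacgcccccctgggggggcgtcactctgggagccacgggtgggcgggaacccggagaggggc
Pfkfb4, chr9:108991652-108991901, plus strand: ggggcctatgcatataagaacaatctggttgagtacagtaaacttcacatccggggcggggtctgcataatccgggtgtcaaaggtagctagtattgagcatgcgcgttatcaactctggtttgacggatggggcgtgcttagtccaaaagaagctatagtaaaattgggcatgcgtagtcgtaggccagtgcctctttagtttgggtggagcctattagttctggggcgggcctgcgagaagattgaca
Ldha, chr7:46845554-46845803, plus strand: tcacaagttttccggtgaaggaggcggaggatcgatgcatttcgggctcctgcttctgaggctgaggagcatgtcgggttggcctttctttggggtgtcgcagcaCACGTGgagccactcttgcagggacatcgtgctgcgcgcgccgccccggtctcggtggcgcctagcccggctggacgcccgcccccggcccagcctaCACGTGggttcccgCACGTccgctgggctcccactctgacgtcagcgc
Slc16a3 held ACGTG at 2 places, Hk3 and Pygl at 1 place each, and Pfkfb4 held none of the motifs searched. The Ldha start shown held both CACGTG and ACGTG, and the other listed Ldha start held neither. All 35 genes matched the RefSeq table, with 48 promoters. ACGTG lay on either strand of 19 of the 48 windows (39.6%), beside 16.6% of all 32851 mouse promoter windows of the same length. CACGTG lay in 4 (8.33%, beside 6.02% of all) and TTGCNNAA, a C/EBP-type motif, in 4 (8.33%, beside 9.56% of all). Promoters of 1 gene overlap in part and base composition was not matched, so these shares describe letters in a window and not binding.

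Sequences shared with pseudogenes matter for this gene set because a read from such a stretch cannot be placed at 1 locus. The 50-base window of the coding sequence found in the most annotated pseudogenes (GENCODE M21, GRCm38) is shown for Gapdh and Eno1, as examples of members with high shares of shared windows.
Gapdh: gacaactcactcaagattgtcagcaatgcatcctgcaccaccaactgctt
Eno1: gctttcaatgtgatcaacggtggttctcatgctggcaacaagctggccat
The Gapdh window was found in 80 pseudogenes and the Eno1 window in 4. Over the whole transcript, 90.4% of the 50-base windows of Gapdh (glyceraldehyde 3-phosphate dehydrogenase) lay in at least 1 of 213 pseudogenes. The share was 68.0% for Pgk1 (phosphoglycerate kinase), 52.8% for Eno1 (enolase), 41.5% for Pgam1 (phosphoglycerate mutase), 30.5% for Pkm2 (pyruvate kinase, now Pkm), 27.0% for Ldhb, 19.1% for Gpi1, 16.6% for Ldha and 10.9% for Taldo1. Shares were 8.6% for Aldoa, 7.51% for Tpi1, 1.3% for Pygl and 0 for the others. In all, 9 of 35 members (25.7%) had more than 10% of their windows in pseudogenes, against 7.96% of 21835 protein-coding genes. The sources used here do not say how such reads were counted, so the levels of these members, and Gapdh above all, are uncertain.

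Levels are given as FPKM, fragments per kilobase of transcript and sequencing depth, as scaled by the authors, which allows genes of different length to be compared within a library. Estimated depths were 19.9 to 24.1 M reads in the KSL libraries and 37.9 and 46.7 M in the granulocyte libraries. The labels held against their defining markers. In the granulocyte libraries S100a8 stood at 55377 and 57405 FPKM, S100a9 at 60165 and 61249 FPKM and Csf3r at 807 and 797 FPKM, while Kit was at 5.55 and 5.72 FPKM and Ly6a, which encodes Sca-1, at 2.26 and 2.09 FPKM. In the control, LncHSC-1 and LncHSC-2 KSL libraries Kit stood at 67.6, 59.1 and 62.0 FPKM and Ly6a at 1010, 1211 and 1025 FPKM. Granulocyte markers were low but present in KSL cells, with S100a8 at 42.5, 41.5 and 41.8 FPKM and Csf3r at 25.5, 26.1 and 24.1 FPKM. In granulocytes 10 of 10 monocyte, macrophage and dendritic markers reached a mean of 5 FPKM, with Mpeg1 at 200 and Csf1r at 57.8 FPKM. Of the B lineage markers 0 of 10 did. The part of other cells in the granulocyte levels was not tested. In such bulk RNA, fewer cells of a type and less RNA per cell cannot be told apart. The targeted non-coding RNAs were not examined here.

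In granulocytes the 8 highest members were headed by enzymes of the pentose phosphate and glycogen branches as much as by glycolysis. Taldo1 (transaldolase) stood at 679 and 677 FPKM, Pkm2 at 643 and 631 FPKM, Pygl (liver-type glycogen phosphorylase) at 624 and 622 FPKM, and Pgd (6-phosphogluconate dehydrogenase, which makes NADPH) at 504 and 502 FPKM. Gpi1 (glucose 6-phosphate isomerase) followed at 386 and 377 FPKM, Aldoa (aldolase) at 376 and 366 FPKM, Tkt (transketolase, read mainly as a merged feature with Mir3076) at 335 and 327 FPKM and G6pdx (glucose 6-phosphate dehydrogenase, the entry step to the pentose branch) at 255 and 255 FPKM. Both technical replicates gave these 8 members the same order. In all, 29 of 35 members reached a mean of 5 FPKM in granulocytes.

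KSL cells had another order, led by lower glycolysis. Ldha, which encodes the main lactate dehydrogenase subunit, stood at 598, 602 and 613 FPKM in the control, LncHSC-1 and LncHSC-2 libraries, Pkm2 at 453, 426 and 429 FPKM and Aldoa at 384, 381 and 380 FPKM. Tpi1 (triose phosphate isomerase) stood at 221, 188 and 218 FPKM, Tkt at 218, 225 and 224 FPKM, Taldo1 at 196, 212 and 215 FPKM and Gpi1 at 187, 168 and 191 FPKM. Tpi1, Tkt and Taldo1 changed places among the 3 libraries, so their order is not resolved. In all, 32 members reached a mean of 5 FPKM over the 3 KSL libraries, and Aldoc, Eno3 and Pfkfb4 did not.

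The role groups show the same contrast on the summed FPKM scale. The 6 pentose phosphate members summed to 1805 and 1796 FPKM in the granulocyte replicates, against 665, 697 and 698 FPKM in the control, LncHSC-1 and LncHSC-2 KSL libraries. The 6 glycogen members summed to 704 and 700 FPKM against 116, 109 and 115 FPKM, and most of the granulocyte sum was Pygl. The 10 upper glycolysis members summed to 1108 and 1085 FPKM against 1038, 986 and 1036 FPKM, and the 8 lower glycolysis members to 1064 and 1059 FPKM against 1232, 1204 and 1226 FPKM. The divisor behind FPKM differed between the granulocyte and KSL tables, so no fold between these sums is given.

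**Figure D1:**
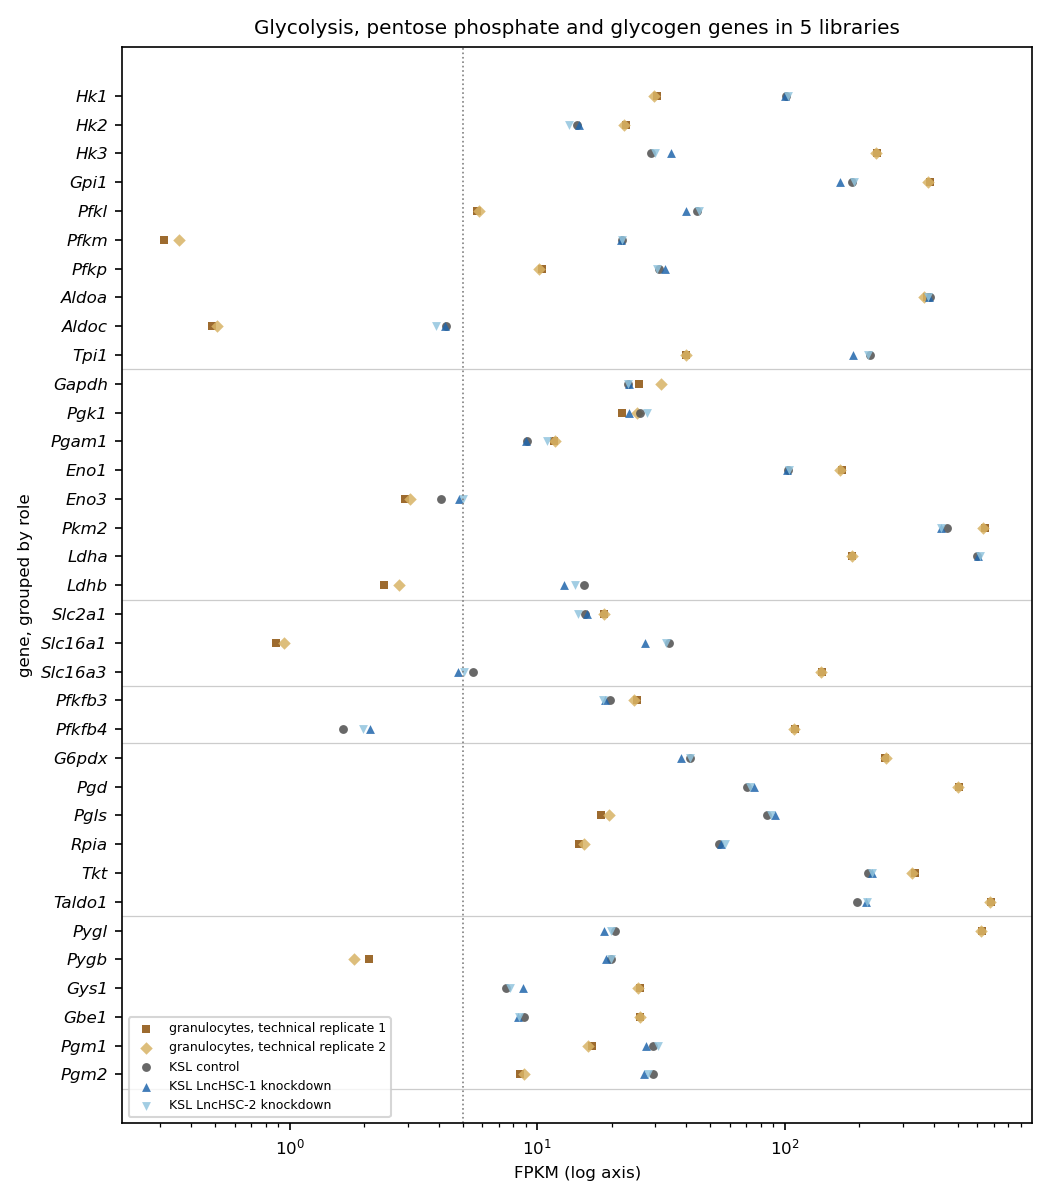
FPKM (log axis) of each member in both granulocyte technical replicates and the 3 KSL libraries, with genes grouped by role and the dotted line at 5 FPKM. Points of 1 cell type lie close together for most genes, and the cell types stand furthest apart at Pfkfb4, Pygl, Slc16a3, Slc16a1 and Pfkm.

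Isozyme composition does not depend on the FPKM divisor of a library, and it is where granulocytes and KSL cells stood most clearly apart. Each isozyme's share of the summed FPKM of its family was computed in each library, with exact binomial 95% intervals that cover counting error only. A family here holds the listed members alone, so isozymes outside the list do not enter the sums. The leading isozyme was another gene in granulocytes than in control KSL cells in 4 of 9 families.

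Hexokinase, which traps glucose by phosphorylation, is encoded here by Hk1, the broadly expressed mitochondria-bound form, Hk2, the inducible form, and Hk3, a form typical of myeloid cells. Hk3 stood at 236 and 233 FPKM in granulocytes and at 28.8, 34.7 and 29.9 FPKM in the control, LncHSC-1 and LncHSC-2 KSL libraries. Hk1 went the other way, at 30.5 and 29.8 FPKM in granulocytes and 101, 101 and 103 FPKM in KSL cells. Hk3 thus held 81.5% (81.2 to 81.8) and 81.7% (81.4 to 82.0) of hexokinase FPKM in the granulocyte replicates and 19.96% (19.2 to 20.7) in control KSL cells, where Hk1 held 70.0% (69.2 to 70.8). Hk2 held 7.94% and 7.88% in granulocytes and 10.0% in control KSL cells. In the LncHSC-1 library the Hk3 share was 23.1% (22.4 to 23.8), above the intervals of the control and the LncHSC-2 library (20.46%, 19.7 to 21.2).

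Phosphofructokinase commits fructose 6-phosphate to glycolysis, and its liver-type (Pfkl), muscle-type (Pfkm) and platelet-type (Pfkp) subunits come from separate genes. All 3 stood at lower FPKM in granulocytes, though Pfkp lay at −0.19 on the centred log2 scale introduced further on. Pfkl stood at 5.72 and 5.82 FPKM against 44.2, 40.1 and 45.1 FPKM in KSL cells, Pfkm at 0.31 and 0.36 FPKM against 22.1, 21.9 and 22.1 FPKM, and Pfkp at 10.5 and 10.2 FPKM against 31.2, 32.9 and 30.5 FPKM. Pfkp led in granulocytes with 63.5% (61.7 to 65.2) and 62.3% (60.7 to 63.9), and Pfkl in control KSL cells with 45.4% (44.3 to 46.4). The share of Pfkm was 1.88% and 2.18% in granulocytes, beside 22.6% (21.7 to 23.6) in control KSL cells. In the LncHSC-1 library Pfkl was at 42.2% (41.3 to 43.2) and Pfkp at 34.7% (33.8 to 35.6).

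The bifunctional regulators set the level of fructose 2,6-bisphosphate, the strongest activator of phosphofructokinase. Pfkfb4 stood at 110 and 109 FPKM in granulocytes and at 1.64, 2.12 and 1.98 FPKM in the control, LncHSC-1 and LncHSC-2 KSL libraries. Pfkfb3 stood at 25.2 and 24.5 FPKM in granulocytes and 19.6, 18.8 and 18.4 FPKM in KSL cells, a log2 ratio of 0.33 as deposited and 1.64, past 2-fold, on the centred scale. Pfkfb4 therefore held 81.4% (80.9 to 81.8) and 81.6% (81.2 to 82.0) of the pair in granulocytes, and Pfkfb3 held 92.3% (90.9 to 93.5) in control KSL cells. Pfkfb2 and Pfkfb1, which are outside the pair, stood at 7.57 and 2.07 FPKM in control KSL cells, both above Pfkfb4. Their granulocyte means were 1.39 and 0.35 FPKM.

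The monocarboxylate transporters move lactate and pyruvate across the membrane, with Slc16a1 encoding MCT1 and Slc16a3 encoding MCT4, the form known for lactate export. Slc16a3 stood at 142 and 140 FPKM in granulocytes and at 5.50, 4.80 and 5.06 FPKM in KSL cells. Slc16a1 was at 0.88 and 0.95 FPKM in granulocytes and at 34.1, 27.3 and 33.1 FPKM in KSL cells. The pair was almost wholly Slc16a3 in granulocytes, at 99.4% and 99.3%, and mostly Slc16a1 in control KSL cells, at 86.1% (84.7 to 87.5). Slc16a7, outside the pair, stood at a mean of 1.14 FPKM in granulocytes and at 3.55 FPKM in control KSL cells.

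Glycogen phosphorylase releases glucose 1-phosphate from glycogen. Pygl stood at 20.7, 18.7 and 19.8 FPKM in KSL cells beside 624 and 622 FPKM in granulocytes, while Pygb, the brain-type form, stood at 19.9, 18.9 and 19.9 FPKM in KSL cells and at 2.08 and 1.82 FPKM in granulocytes. Pygl held 99.7% in both granulocyte replicates and 51.0% (49.2 to 52.7), 49.7% (48.0 to 51.4) and 49.9% (48.1 to 51.7) in the KSL libraries. The KSL intervals span an even split, so neither form led there beyond counting error. For phosphoglucomutase, which links glycogen to glucose 6-phosphate, the tables use the symbols of their mm9 annotation: their Pgm1 lies on chromosome 5 and is Pgm2 in current annotation, and their Pgm2 lies on chromosome 4 and is Pgm1. The gene named Pgm1 in the tables stood at 16.7 and 16.1 FPKM in granulocytes and 29.5, 27.6 and 30.7 FPKM in KSL cells, and the one named Pgm2 at 8.55 and 8.82 FPKM and 29.3, 27.1 and 28.0 FPKM. The first held 66.1% (64.3 to 67.9) and 64.6% (62.9 to 66.2) in granulocytes and 50.1% (48.3 to 51.9) in control KSL cells.

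The other 3 families had the same leading gene in every library. Aldoa held 99.9% of aldolase FPKM in granulocytes and 98.9% in control KSL cells, with Aldoc at 0.48 and 0.51 FPKM in granulocytes and 4.30, 4.26 and 3.91 FPKM in KSL cells. Eno1 held 98.3% and 98.2% of enolase in granulocytes and 96.2% (95.5 to 96.8) in control KSL cells, with Eno3, the muscle form, at 2.92 and 3.07 FPKM and 4.09, 4.84 and 5.03 FPKM. Ldha held 98.7% and 98.5% of lactate dehydrogenase in granulocytes and 97.5% (97.2 to 97.7) in control KSL cells, with Ldhb, the heart form, at 2.40 and 2.78 FPKM and 15.4, 12.8 and 14.2 FPKM. Ldhc, outside the sum, stood at 1.60 and 1.98 FPKM in granulocytes and at 0 FPKM in control KSL cells. Eno1 and Ldhb have many windows shared with pseudogenes, as given above, and their part in these shares was not tested.

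**Figure D2:**
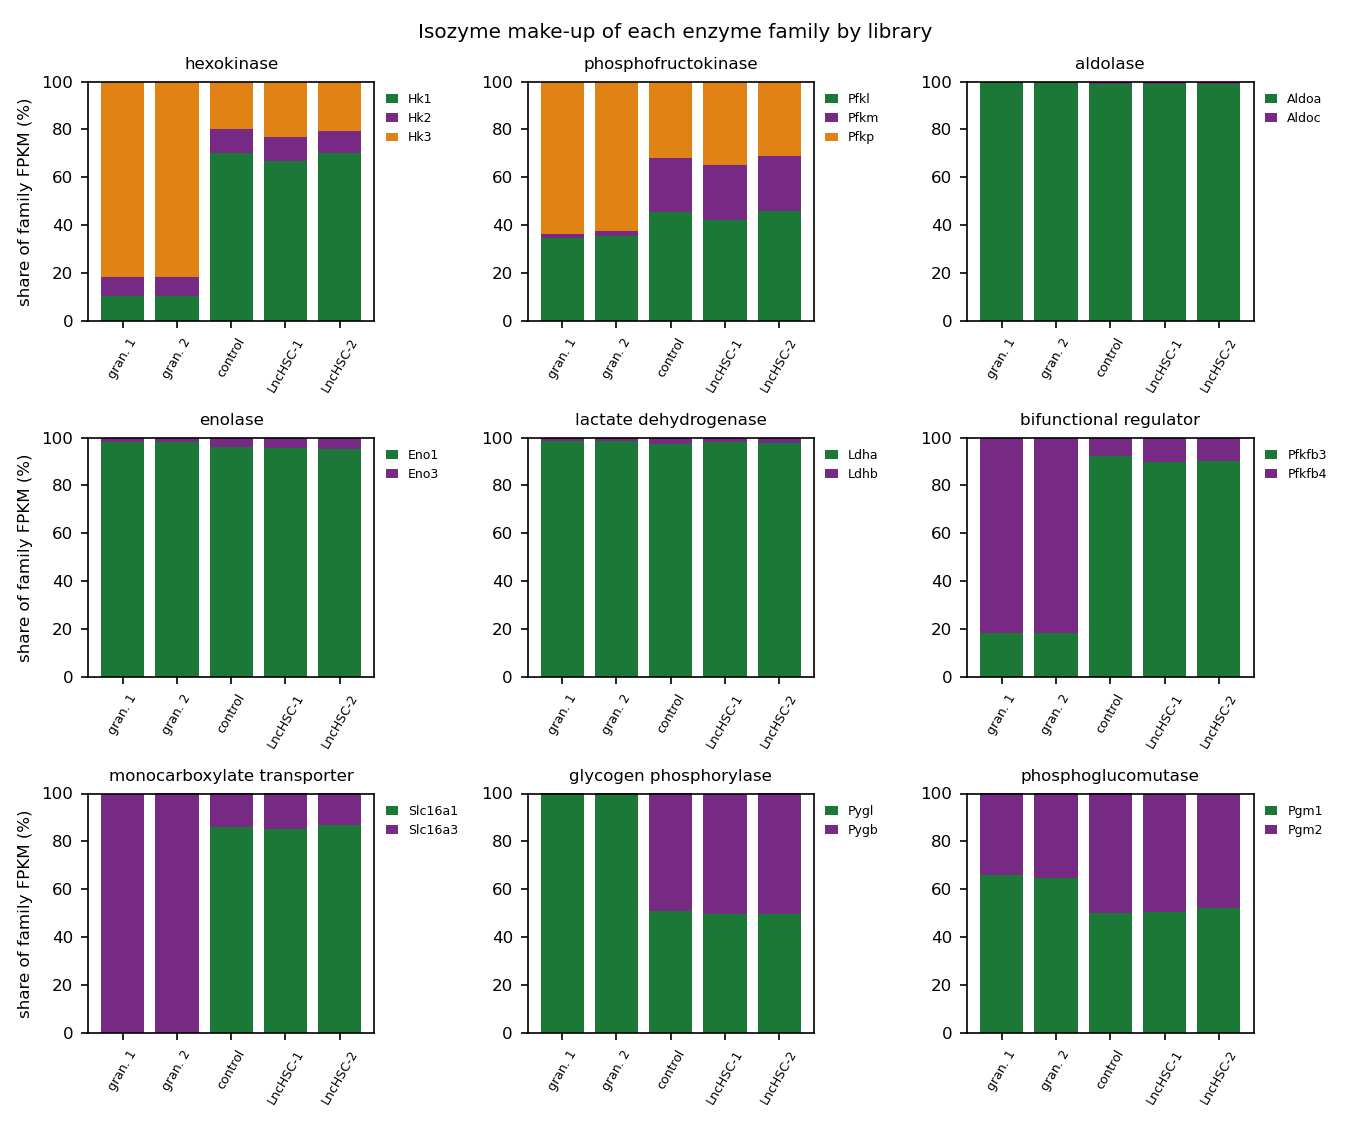
Share of summed family FPKM (%) held by each isozyme in each library, with the granulocyte technical replicates (gran. 1 and gran. 2) at the left of each panel and the 3 KSL libraries at the right. Families hold the listed members only. Hexokinase, phosphofructokinase, the bifunctional regulators and the monocarboxylate transporters have another leading gene in granulocytes, and each family has the same leading gene in the 3 KSL libraries, save the near-even glycogen phosphorylases.

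For differences of single genes, the log2 ratio of FPKM + 1 in granulocytes over control KSL cells was centred on its median over the 8832 features shared by both kinds of table with a mean of at least 5 FPKM. That median was −1.31, so the ratios depend on the centring. With 1 biological sample on each side there is no test, and cell type, experiment, culture and FPKM divisor cannot be told apart. Of the 33 members at the floor, 20 were at least 2-fold higher in granulocytes after centring and 5 at least 2-fold lower, with a median of 1.60. Of all features, 32.5% were higher and 31.9% lower by that rule. Without centring the split was 10 higher and 12 lower, beside 15.5% and 55.5% of all features. The 10 members higher under both scalings were Hk3, Gpi1, Pfkfb4, Slc16a3, G6pdx, Pgd, Taldo1, Pygl, Gys1 and Gbe1, and the 5 lower under both were Pfkl, Pfkm, Tpi1, Slc16a1 and Pygb. The floor is a mean over both cell types, so 5 of the 33 members passed it through the cell type where they are high: Pfkfb4 through granulocytes, and Pfkm, Ldhb, Slc16a1 and Pygb through KSL cells. These had to differ, and they supply 1 of the 20 higher and 3 of the 5 lower members.

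The 5 members furthest up on the centred log2 scale were Pfkfb4 at 6.70, Pygl at 6.16, Slc16a3 at 5.76, Hk3 at 4.29 and Pgd at 4.13, and they stayed above 0 without centring, at 5.39, 4.85, 4.45, 2.98 and 2.82. The 5 furthest down were Slc16a1 at −2.89, Pfkm at −2.80, Pygb at −1.51, Pfkl at −1.43 and Tpi1 at −1.12. In the coordinates of the tables (mm9, whole gene), Pfkfb4 spans chr9:108893947-108934739, Pygl chr12:71291802-71328670, Slc16a3 chr11:120809798-120820314, Hk3 chr13:55107346-55122746, Pgd chr4:148524094-148540816 and Slc16a1 chr3:104442591-104462385. Tpi1 was the one lower member outside an isozyme family, at 40.0 and 40.0 FPKM in granulocytes.

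By role, 4 of 6 pentose phosphate members were higher and 0 lower on the centred scale, beside 32.5% and 31.9% of all features. The median of these members was 2.51. The higher members were both NADPH-making dehydrogenases and the carbon-returning enzymes, with G6pdx at 3.90, Taldo1 at 3.10 and Tkt at 1.92 beside Pgd. Tkt was not past 2-fold without centring, at 0.60. The remaining members of that branch lay below 0, with Pgls (6-phosphogluconolactonase) at −0.79 and Rpia (ribose 5-phosphate isomerase) at −0.47. Pgls stood at 18.2 and 19.6 FPKM in granulocytes and 84.7, 91.3 and 88.2 FPKM in KSL cells, and Rpia at 14.7 and 15.4 FPKM and 54.3, 55.2 and 57.2 FPKM. The branch was therefore not uniform: G6pdx stood at 41.5, 37.9 and 41.3 FPKM and Pgd at 70.5, 75.1 and 72.3 FPKM in KSL cells, below Pgls, and both were above it in granulocytes.

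Of the 6 glycogen members, 3 were higher and 1 lower on the centred scale, beside 32.5% and 31.9% of all features. Gys1 (glycogen synthase) stood at 26.0 and 25.6 FPKM in granulocytes and 7.49, 8.78 and 7.74 FPKM in KSL cells, a centred log2 ratio of 2.97. Gbe1 (the branching enzyme) stood at 26.0 and 26.1 FPKM and 8.86, 8.38 and 8.44 FPKM, a ratio of 2.77. Genes of glycogen synthesis (Gys1, Gbe1) and of breakdown (Pygl) were thus higher in granulocytes under both scalings, while Pygb was lower.

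Lower glycolysis had 5 of 7 members higher on the centred scale and 0 lower, beside 32.5% and 31.9% of all features. The higher members were Gapdh at 1.60, Pgk1 at 1.18, Pgam1 at 1.65, Eno1 at 2.02 and Pkm2 at 1.80, and none of the 5 passed 2-fold without centring. These are also the 5 members with the highest shares of windows in pseudogenes. Leaving out the 9 members with more than 10% of such windows gave 13 higher members in place of 20, a choice made after the data were seen. All 9 had been among the 33 members at the floor, so the total fell as well, and the lower members stayed at 5. Upper glycolysis had 4 of 9 members higher (Hk2, Hk3, Gpi1 and Aldoa) and 3 lower, beside the same 32.5% and 31.9% of all features. Slc2a1, the glucose transporter GLUT1, stood at 18.6 and 18.7 FPKM in granulocytes and 15.5, 15.9 and 14.7 FPKM in KSL cells, with a centred ratio of 1.56 and an uncentred one of 0.25.

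**Figure D3:**
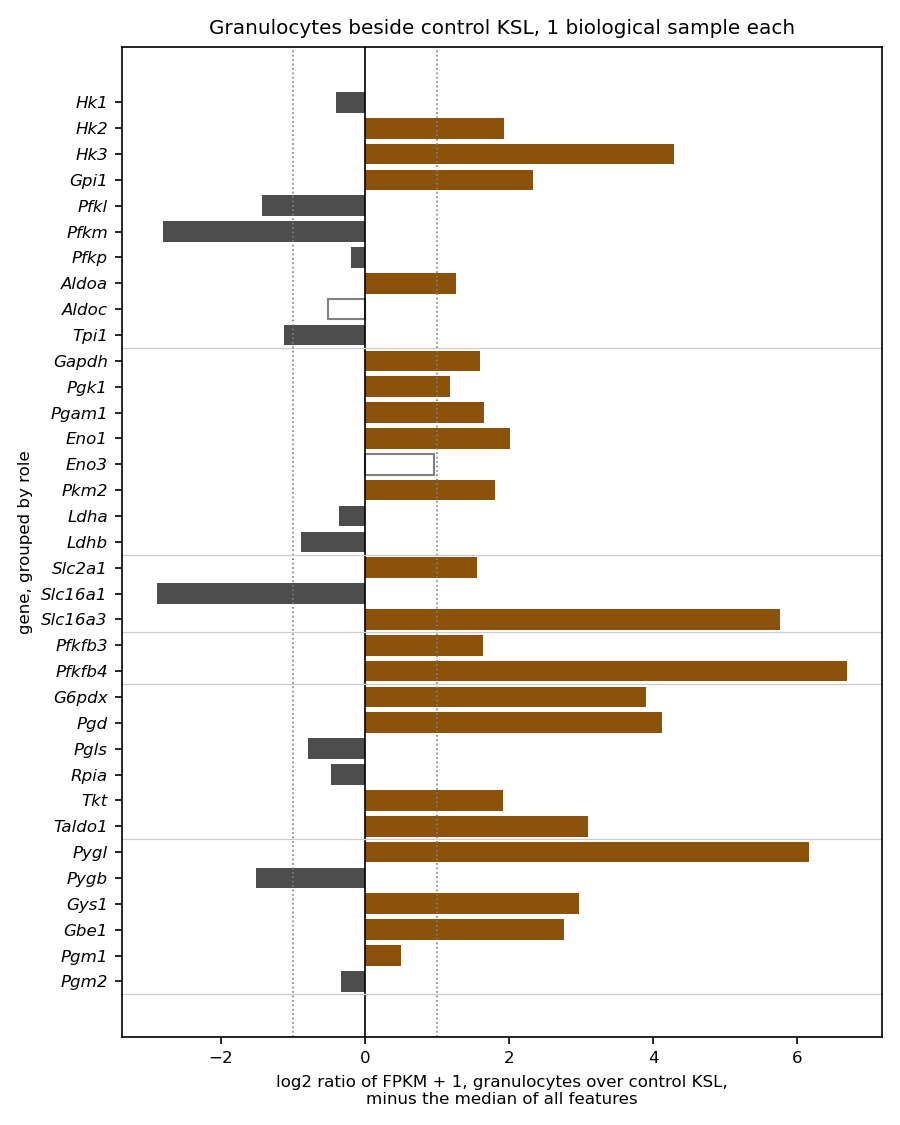
Log2 ratio of FPKM + 1 in granulocytes (mean of both technical replicates) over control KSL cells, minus the median of all features, with genes grouped by role and dotted lines at 2-fold. Brown bars are above 0, grey bars below 0 and open bars under the floor of 5 FPKM. The longest bars are Pfkfb4 (6.70), Pygl (6.16) and Slc16a3 (5.76).

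The series design states that the knockdowns served to look for target genes of the non-coding RNAs, and nothing in the sources used here names the members as such targets. The log2 ratio of FPKM + 1 was taken for the 9153 features with a mean of at least 5 FPKM over the 3 KSL libraries, and members were counted as higher or lower at 1.2-fold. Each group is a single library, so no value here has a replicate check. Parentheses hold exact binomial 95% intervals from the estimated reads, which reflect counting error alone and set 1 library against another. The intervals do not include the added 1 FPKM, so the ratio of a low gene can lie off their centre. Both knockdown comparisons share the control library.

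In LncHSC-1 knockdown against control, 0 of 32 members were at least 1.2-fold higher and 1 was at least 1.2-fold lower. Of all features tested, 5.13% were higher and 3.64% lower. The members' median was −0.01, beside −0.02 over all features, and 12 members lay above 0, beside 43.8% of all features. The lower member was Slc16a1, at 34.1 FPKM in control, 27.3 in LncHSC-1 and 33.1 in LncHSC-2 cells, a log2 ratio of −0.31 (−0.39 to −0.25) against control. Next came Ldhb at −0.25 (−0.47 to −0.08) and Tpi1 at −0.23 (−0.28 to −0.19). The furthest above were Hk3 at 0.26 (0.17 to 0.33), Gys1 at 0.20 (0.08 to 0.38) and Taldo1 at 0.11 (0.06 to 0.16). With a pseudocount of 0.1 FPKM, Hk3 at 0.27 and Ldhb at −0.27 also passed 1.2-fold.

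In LncHSC-2 knockdown against control, 0 of 32 members passed 1.2-fold in either direction, beside 3.4% of all features higher and 2.37% lower. The members' median was 0.00, beside 0.00 over all features, and 18 lay above 0, beside 52.1% of all features. The furthest below were Ldhb at −0.12 (−0.33 to 0.08), Slc16a3 at −0.10 (−0.35 to 0.12) and Hk2 at −0.10 (−0.20 to −0.01). The furthest above were Pgam1 at 0.25 (0.08 to 0.48), Taldo1 at 0.13 (0.08 to 0.19) and Pgk1 at 0.08 (−0.04 to 0.21). Pgam1 stood at 9.07, 9.04 and 11.0 FPKM in the control, LncHSC-1 and LncHSC-2 libraries, and it passed 1.2-fold with a pseudocount of 0.1 FPKM, at 0.28.

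LncHSC-1 against LncHSC-2 knockdown does not use the control library. Of 32 members 0 were at least 1.2-fold higher and 1, Slc16a1, was lower at −0.27 (−0.35 to −0.21), beside 4.6% and 3.8% of all features. The members' median was −0.02, beside −0.03 over all features, and 11 lay above 0, beside 40.4% of all features. Pgam1 followed at −0.26 (−0.48 to −0.09) and Pgk1 at −0.23 (−0.36 to −0.12). The furthest above were Hk3 at 0.21 (0.14 to 0.30), Gys1 at 0.16 (0.03 to 0.33) and Hk2 at 0.12 (0.04 to 0.22). Slc16a1 no longer passed 1.2-fold from the deposited count columns, at −0.13, or from those columns centred on the median of all features, at −0.25.

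By median and by the 1.2-fold counts, the members lay close to all features in each comparison. The interval left out 0 for 17 of 32 members in LncHSC-1 against control, beside 39.7% of all features with reads, for 7 in LncHSC-2 against control, beside 25.5%, and for 12 in LncHSC-1 against LncHSC-2, beside 35.8%. These intervals narrow as a feature's reads increase, and levels were not matched. Between the granulocyte technical replicates, which are 1 biological replicate, such intervals left out 0 for 6 of 29 members. The 6 pentose phosphate members had 5 above control in each knockdown, beside 43.8% of all features for LncHSC-1 and 52.1% for LncHSC-2. The medians of these members were 0.07 for LncHSC-1 and 0.05 for LncHSC-2, and the member below was G6pdx, at −0.13 and −0.01. From the deposited count columns, 5 of 6 were again above control in LncHSC-1 cells but 0 of 6 in LncHSC-2 cells, where those columns place the median of all features at −0.14, and 5 of 6 there after centring on that median. The side was not shared by the 3 further pentose phosphate genes at the floor, H6pd, Rpe and Rbks. On the FPKM scale 0 of these lay above control in LncHSC-1 cells and 1 in LncHSC-2 cells, with medians of −0.20 and −0.11. Of the 6 glycogen members 5 were below control in LncHSC-1 cells, with a median of −0.08, and 3 in LncHSC-2 cells, with a median of −0.03. With 43.8% of all features above control for LncHSC-1 and 52.1% for LncHSC-2, most features also lay below control in LncHSC-1 cells. Glycogen synthase, Gys1, was the glycogen member above control in LncHSC-1 cells. The LncHSC-2 count was 6 of 6 below control from the deposited count columns and 4 after centring, while that of LncHSC-1 was 5 under each scaling. The LncHSC-1 library also stood apart in marker genes of other cells. Of the B lineage markers at the floor, 6 of 6 were at least 1.2-fold higher than in control, beside 5.13% of all features. The 10 listed markers summed to 59.0 FPKM in control, 107 in LncHSC-1 and 61.9 in LncHSC-2 cells, with 1 of the 10 at 0 in control cells. Below the floor the B lineage markers were mixed, with Pax5 at 0.90, Ebf1 at 0.12, Igll1 at 0.07 and Vpreb1 at −0.19. Of the monocyte, macrophage and dendritic markers at the floor 5 of 6 were higher, beside the same 5.13%. All found markers of that list summed to 162, 279 and 171 FPKM, and none of them was at 0. The higher ones were the antigen presentation genes Cd74 (log2 ratio 0.94), H2-Aa (0.88) and H2-Eb1 (0.73), with Ly86 (0.67) and Mpeg1 (0.44). Markers of this list below the floor lay near control, with Csf1r at 0.03, Ccr2 at 0.07, Emr1 at 0.01 and Itgax at 0.02. Of the interferon response genes 9 of 10 were higher, again beside 5.13% of all features, with sums of 1221, 1734 and 1291 FPKM. Mature granulocyte markers summed to 131, 124 and 119 FPKM, and megakaryocyte markers to 583, 745 and 718 FPKM. The granulocyte markers did not move together in LncHSC-1 against control. Of the 5 at the floor 2 lay above control, and below the floor Mmp8 was at 0.34 and Ltf at −0.33. Cd79a, a B cell receptor component, stood at 11.6, 22.0 and 11.5 FPKM and Cd74, an antigen presentation gene, at 73.7, 143 and 82.98 FPKM. Whether other cells had a part in the Slc16a1 and Hk3 values was not tested.

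**Figure D4:**
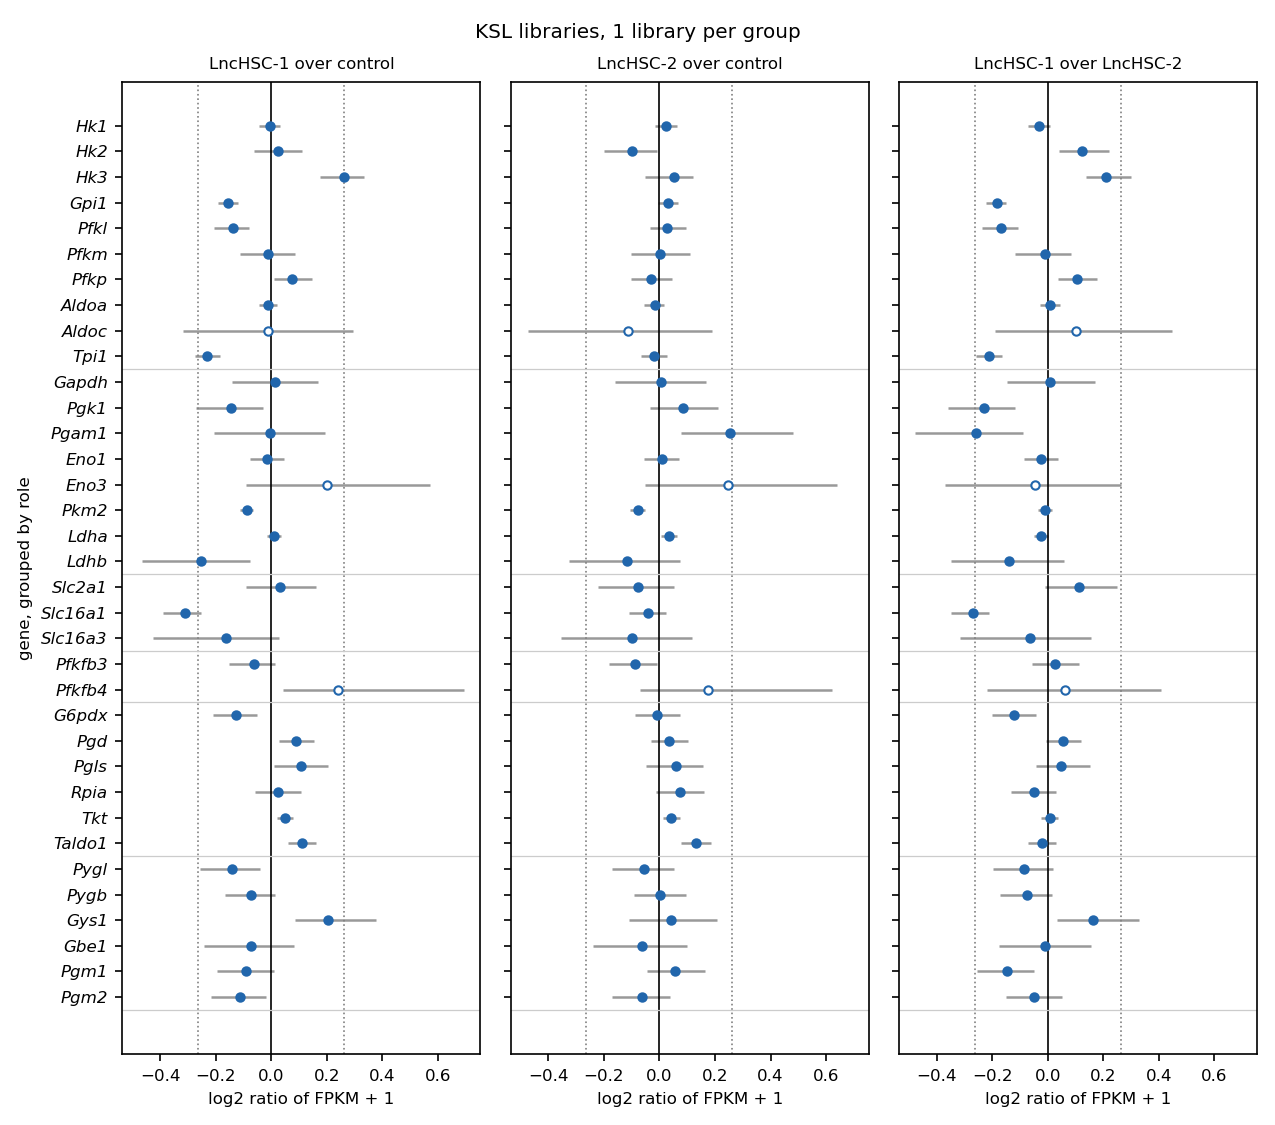
Log2 ratio of FPKM + 1 of each member between KSL libraries, 1 panel per comparison, with lines for the exact binomial 95% interval (counting error only), open points under the floor of 5 FPKM and dotted lines at 1.2-fold. Slc16a1 is the member past a dotted line, at −0.31 against control and −0.27 against LncHSC-2, and most other points lie near 0.

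The rest of the pathway was followed through 70 further genes, of which 69 were found and 31 reached the KSL floor. In LncHSC-1 against control 0 were higher and 2 lower by the 1.2-fold rule, beside 5.13% and 3.64% of all features. In LncHSC-2 against control 0 passed in either direction, beside 3.4% of all features higher and 2.37% lower. In LncHSC-1 against LncHSC-2 0 passed, beside 4.6% and 3.8%. The 2 genes lower in LncHSC-1 against control were Rbks (ribokinase), at 8.18, 6.19 and 7.22 FPKM in control, LncHSC-1 and LncHSC-2 cells with a ratio of −0.35 (−0.72 to −0.08), and Pgm2l1 (glucose 1,6-bisphosphate synthase), at 9.39, 7.45 and 8.27 FPKM with a ratio of −0.30 (−0.43 to −0.24). Of the 8 genes of pyruvate entry to mitochondria at the floor, 0 lay above control in either knockdown, beside 43.8% of all features for LncHSC-1 and 52.1% for LncHSC-2. The medians of these 8 genes were −0.19 for LncHSC-1 and −0.11 for LncHSC-2. Among them Pdha1, a subunit of pyruvate dehydrogenase, stood at 68.0, 59.4 and 65.5 FPKM and Brp44, a subunit of the mitochondrial pyruvate carrier, at 40.2, 38.4 and 36.7 FPKM. Both comparisons share the control, so the common side is not 2 observations, and it was not recomputed from the count columns.

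In granulocytes some of these genes were as high as the members. Adpgk, the ADP-dependent glucokinase, stood at 569 and 570 FPKM against 20.48, 22.2 and 19.99 FPKM in KSL cells, and Khk (ketohexokinase) followed in its list at 7.94 and 8.22 FPKM. Slc2a3, the glucose transporter GLUT3, stood at 314 and 309 FPKM against 55.8, 55.5 and 50.1 FPKM, and Slc2a6 at 77.1 and 75.2 FPKM against 2.997, 5.28 and 3.13 FPKM. Slc2a3 thus stood far above Slc2a1 in every library, on the FPKM scale. In the glycogen list Gyg (glycogenin, which primes glycogen) stood at 86.7 and 87.0 FPKM against 42.3, 39.3 and 40.9 FPKM, and Ppp1r3b, a glycogen-targeting phosphatase subunit, at 51.2 and 50.7 FPKM against 2.99, 2.88 and 2.90 FPKM. Pdha1 and Brp44 led the pyruvate list in granulocytes at means of 20.98 and 51.4 FPKM, H6pd and Rpe the pentose list at 19.6 and 13.5 FPKM, and Hif1a and Pck2 the regulators at 19.8 and 3.63 FPKM.

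The technical replicates show how precise the granulocyte values are, for reading and counting alone. Of the 29 members at 5 FPKM or more, 1 differed by more than 1.2-fold between them, beside 1.02% of all 6057 features tested. That member was Gapdh, at 25.7 and 31.5 FPKM, a log2 ratio of 0.29 (0.20 to 0.39). Pgk1 came next among members at that level, at 22.1 and 25.3 FPKM and 0.20 (0.11 to 0.28). The median absolute log2 difference of the 29 members was 0.03, as over all features. The interval left out 0 for 6 of the 29 members, though both libraries come from 1 biological replicate. That count was not made over all features. Gapdh and Pgk1 also have the highest shares of windows in pseudogenes, 90.4% and 68.0%, while Eno1 (52.8%), Pgam1 (41.5%) and Pkm2 (30.5%) differed by no more than 0.03 between the replicates. Gapdh stood at 23.2, 23.5 and 23.3 FPKM in the KSL libraries, rank 21 of 35 in control cells, below Aldoa, Tpi1, Eno1 and Pkm2 of the same pathway. The part of shared sequence in these Gapdh values was not tested.

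**Figure D5:**
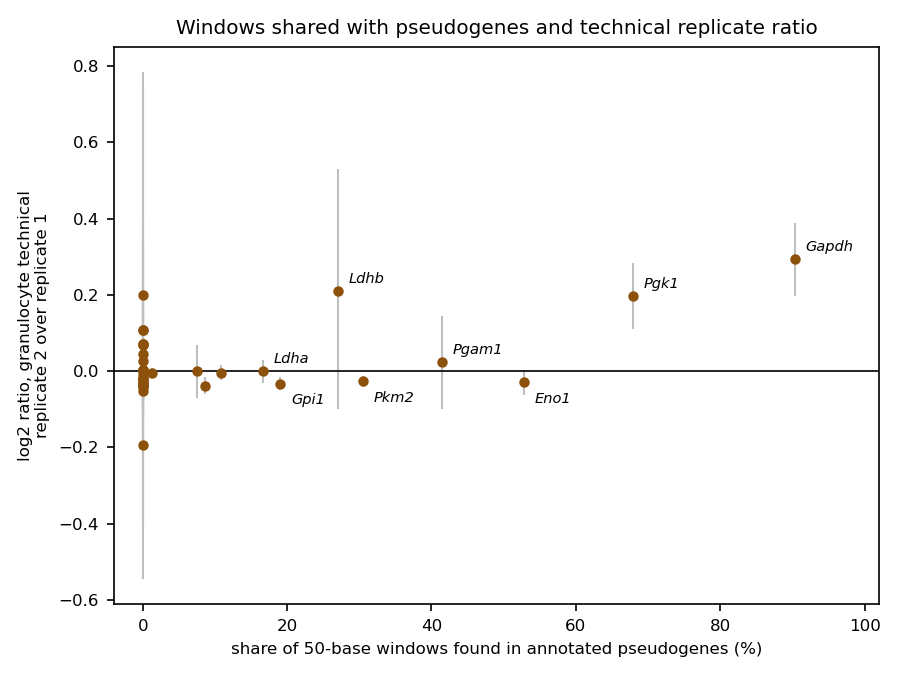
Log2 ratio of granulocyte technical replicate 2 over replicate 1 for each member against the share (%) of its 50-base transcript windows found in annotated pseudogenes, with lines for the exact binomial 95% interval (counting error only). Gapdh (0.29) and Pgk1 (0.20) lie at the right and above 0, while Eno1, Pgam1 and Pkm2 lie near 0. Ldhb (0.21), Pfkm (0.20) and Pygb (−0.19), under 5 FPKM in granulocytes, lie about as far from 0 as Pgk1. Their shares are 27.0%, 0 and 0. The widest lines belong to members with few reads.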

How the data were processed

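RNA-seq of polyA-selected RNA was read from the deposited tables, with groups taken from the labels. Only the build mm9 and DESeq are named in the submitters' processing notes; aligner, counter and annotation: not given in the sources used here. According to the deposited headers, each table gives FPKM as scaled by the authors, and a count column. The count columns of the KSL tables were treated as a deposited signal, reads times 1 factor per library, because 91.9% to 92.2% of values up to 20 reads were whole multiples within 0.1 of a read. The count columns of the granulocyte tables were treated as a deposited score, scaled and rounded, and served only to estimate reads. Estimated depths were 21.0, 24.1 and 19.9 M reads (control, LncHSC-1, LncHSC-2) and 37.9 and 46.7 M (granulocytes).

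Log2 ratios used FPKM + 1, which understates the change of low genes, over features with a mean FPKM of at least 5. Size rules were 1.2-fold within KSL cells, 2-fold for granulocytes beside KSL cells and 1.5-fold for naming markers. Exact binomial 95% intervals cover counting error only. No p-value was computed, since each group had 1 biological sample. Ratios, their intervals and the estimate of the granulocyte scaling factor were tested on simulated data, and the isozyme shares were not. Windows of 50 bases and promoters were read from GRCm38 references, used for sequence only, never for the coordinates of the tables. The named genes were all members, with full values for the 3 furthest above and below in each KSL comparison, those past 1.2-fold, the 8 highest in granulocytes, isozyme family members and the 5 furthest up and down in granulocytes; further pathway genes were named past 1.2-fold or as the 2 highest per list in granulocytes. Members and lists were chosen with earlier results of these data known. The B cells that the series design mentions were not analysed here. Python 3.11.15, numpy 2.4.6, scipy 1.17.1, pandas 2.3.3 and matplotlib 3.10.9 were used. Alternatives were the pseudocount, the floor, the fold rules, the count columns, percentiles, the mean of the KSL libraries and each technical replicate left out; the uncentred ratio, the fixed centre without a floor and the exclusion of members sharing sequence with pseudogenes were chosen after the data were seen. A further shared window is not reported here.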

Additional observations from a re-analysis of the deposited data

How the results depend on the processing

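Of 82 summary and 160 single-gene values recomputed, 54 and 121 stayed within their limits and 28 and 39 moved. The sign changed for 7 log2 values, none of them past 1.2-fold: 5 medians of the members and 2 genes, Pgk1 (0.08 to −0.06) and Taldo1 (0.13 to −0.01) in LncHSC-2 against control from the count columns as deposited. With a pseudocount of 0.1 FPKM, members past 1.2-fold numbered 1 higher and 2 lower in LncHSC-1 against control, 1 higher in LncHSC-2 against control and 2 lower in LncHSC-1 against LncHSC-2. From the count columns as deposited, 2 were lower in each knockdown against control, and 4 higher with 0 lower in LncHSC-1 against LncHSC-2; the medians changed sign to −0.14 for LncHSC-2 against control and 0.12 for LncHSC-1 against LncHSC-2. From the centred count columns the 3 medians also changed sign, at 0.01, −0.0003 and 0.004, and 1 was higher in each knockdown against control and 0 lower in LncHSC-1 against LncHSC-2. A 1.5-fold rule left 0 lower, and a 1.1-fold rule gave 2 higher and 8 lower in LncHSC-1 against control, 1 higher in LncHSC-2 against control, and 2 higher and 8 lower in LncHSC-1 against LncHSC-2. For granulocytes beside control KSL cells, dropping the floor gave 10 higher and 13 lower, because the median used for centring was then 0; with the reported centre kept, a choice made after the data were seen, it gave 20 and 5. A 4-fold rule gave 11 and 2, no centring 10 and 12, and leaving out members with shared sequence 13 and 5 from a smaller total. By percentile, counted on either side of 0 with no size rule, 21 members stood higher and 12 lower in granulocytes. The leading isozyme differed in 6 families by share of the count column, which is not per length, and in 4 by FPKM. Dropping either technical replicate left 29 members at 5 FPKM and 4 families with another leading isozyme. No paired analysis was possible because each KSL group has 1 library and the granulocyte libraries are technical replicates of 1 sample. Members under 5 FPKM, such as Pfkfb4 in KSL cells, rest on few reads, and their ratios are the least precise.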
